A study of Oryctolagus cuniculus with 4 samples.

Results

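SOX, FOX, KLF, RUNX, GLI, TEAD and NFI genes encode families of DNA-binding proteins that set the identity of mesenchymal cells and relay their signals. The set was made of all genes whose symbol carries one of these family names, with the GLI-similar genes GLIS1 and GLIS2 and without the unrelated GLIPR genes. It held 68 genes, of 20294 genes in the table and 13225 with a symbol: 25 FOX, 14 KLF, 13 SOX, 5 GLI or GLIS, 4 RUNX, 4 TEAD and 3 NFI genes. Their levels were read in poly(A) RNA of 4 intact semitendinosus tendons, the hamstring tendon used for ligament grafts, from female New Zealand White rabbits aged 193 days. The labels give no genotype, drug or surgical treatment that separates the animals, so all tendons formed 1 group and no groups were compared. The labels differ in what they call the tissue: the sample descriptions say intact, the series title allografts and the design text autografts, while the protocols describe tendon that was frozen after harvest. Surface muscle had been scraped from each tendon, and whole tissue was ground, so that every cell type left in the tendon contributed RNA.

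In mesenchymal tissue, SOX9 with SOX5 and SOX6 drives the cartilage programme, RUNX2 drives bone formation, and RUNX1 acts in blood and in skeletal progenitors. GLI proteins carry the Hedgehog signal to the genome, and TEAD proteins are the DNA-binding partners of YAP1 and WWTR1 (TAZ), the coactivators that the Hippo kinases hold back and that respond to mechanical load. FOXO proteins act downstream of insulin-like growth factor signalling, many KLF genes respond within hours to stress hormones, shear or growth factors, and NFI proteins act broadly in connective tissue and muscle.

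Totals ranged from 19759696 estimated counts in tendon 1 to 30646052 in tendon 2. The labelled tissue was checked against tendon genes. All 8 with an entry had a mean of at least 1 TPM, as did 75.4% of all genes with a symbol. They ran from EGR1 at 68.95 TPM to DCN at 14507 TPM, while SCX and COMP had no entry under those symbols. TPM scales each library to a fixed total after correcting for transcript length. Genes can be compared by it only as far as the annotated lengths are complete, which was not tested. The length was a multiple of 3, as in coding sequence alone, for 62.2% of member transcripts and 64.5% of all transcripts. Other cell types were present in unequal amounts. Summed levels of 6 skeletal muscle genes were 7444, 29502, 15166 and 18172 TPM in tendons 1 to 4, and 7 fast-fibre genes summed to 17.4, 80.5, 23.3 and 2387 TPM. Adipocyte genes (6 measured) summed to 218, 310.0, 457 and 741 TPM, and macrophage genes (8 measured) to 87.5, 70.5, 168 and 218 TPM. In whole tissue, fewer cells of a type and less RNA per cell cannot be told apart.

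A mean of at least 1 TPM was reached by 40 of the 68 genes (58.8%), against 63.0% of all genes and 75.4% of genes with a symbol. The families differed in this count: 12 of 14 KLF, 10 of 25 FOX, 5 of 13 SOX, 3 of 5 GLI or GLIS, 3 of 4 RUNX, all 4 TEAD and all 3 NFI genes passed. A mean of at least 10 TPM was reached by 31 members (45.6%, against 43.0% of all genes and 53.0% of those with a symbol). In all tendons, 10 members had 0 estimated counts (14.7%, against 14.5% of all genes and 6.28% of those with a symbol), and 18 had some counts with a mean below 1 TPM.

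Together the members took 0.183% of TPM. They summed to 2329.8, 1600.3, 1887 and 1516 TPM in tendons 1 to 4, a mean of 1833 ± 367 TPM (SD, n = 4). NFI genes held 28.9% of that sum, KLF genes 26.5%, FOX genes 22.00%, GLI and GLIS genes 7.82%, TEAD genes 7.17%, RUNX genes 4.26% and SOX genes 3.32%. Much of a family's level often came from 1 gene. By TPM, NFIX held 84.9% of the NFI level and GLIS2 82.9% of the GLI and GLIS level, while KLF6, the leading KLF gene, held 21.4% of the KLF level. By CPM the leading KLF gene was KLF10, at 115 CPM against 69.8 CPM for KLF6.

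**Figure D1:**
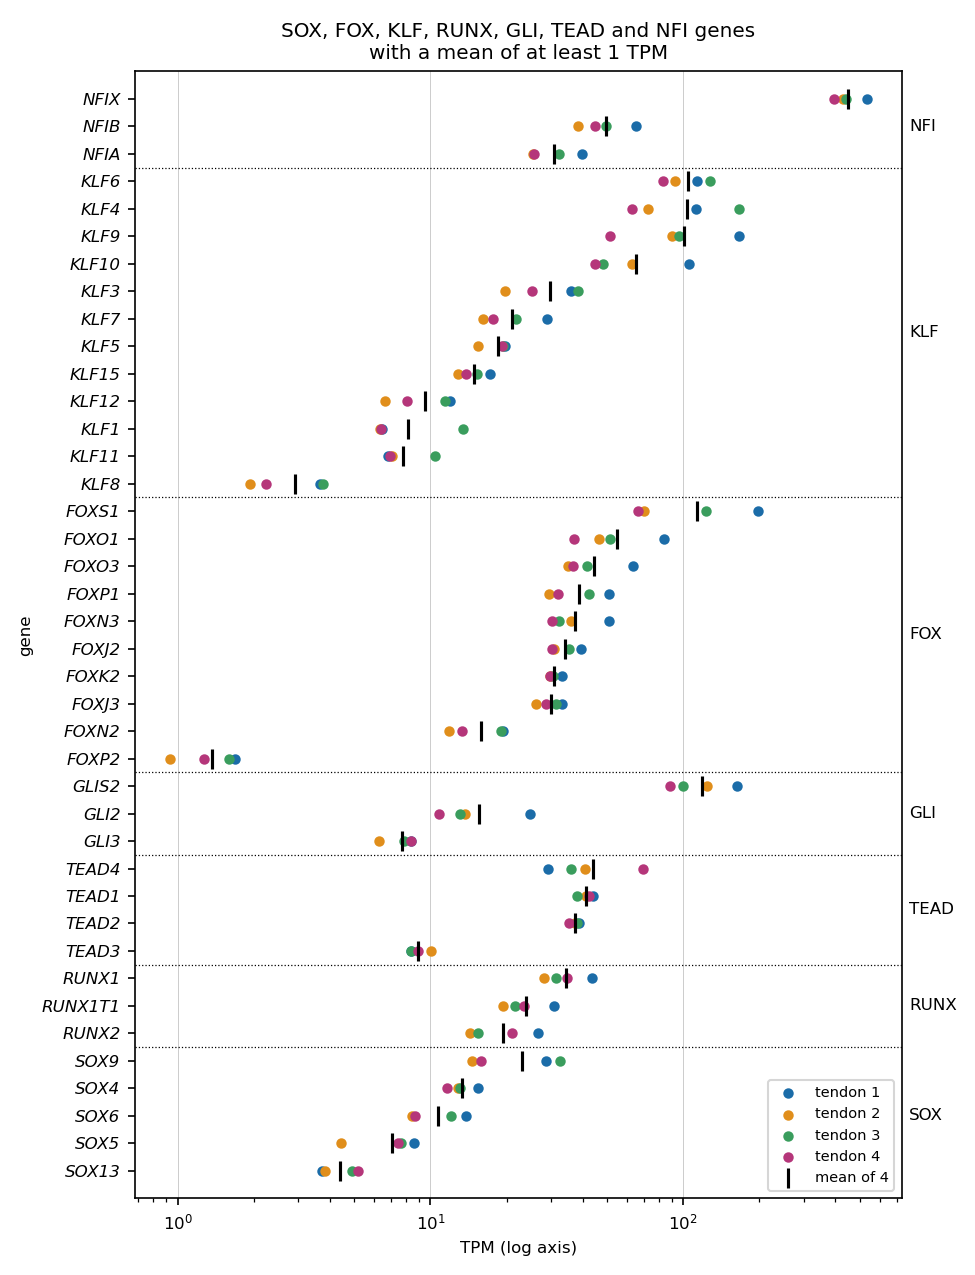
TPM on a log axis of the 40 members with a mean of at least 1 TPM, grouped by family (dotted lines). Each point is a tendon and each black bar the mean over the 4. NFIX stood highest, between 395 and 532 TPM, and TEAD1 and TEAD2 had points that nearly coincide, while FOXS1, KLF4 and KLF9 were spread out.

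NFI proteins bind DNA as dimers, and NFIX is known for the switch from embryonic to fetal muscle and for roles in stem cell upkeep. NFIX (scaffold GL018984, 26985 to 77636, build OryCun2.0) had 532, 430.1, 441 and 395 TPM in tendons 1 to 4, a mean of 449.7 ± 58.3 TPM (SD, n = 4). It was higher than every other member in all 4 tendons and stood at percentile 98.6 of all genes by mean TPM. NFIB, a regulator of lung and brain maturation, had 65.1, 38.3, 49.7 and 44.7 TPM. NFIA, a driver of glial and brown fat differentiation, had 39.8, 25.4, 32.2 and 25.8 TPM. Both were highest in tendon 1, and their ranges over the tendons did not touch that of NFIX. NFIC, the remaining family member, had no entry under that symbol.

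KLF proteins are zinc-finger factors that share a DNA-binding end and differ in the cofactors they recruit. The activating subgroup with KLF1, KLF4, KLF5, KLF6 and KLF7 summed to 280.2, 204, 348 and 189.6 TPM in tendons 1 to 4. The subgroup that binds the corepressor SIN3A (KLF9, KLF10, KLF11 and KLF14) summed to 278, 159.8, 155 and 103 TPM. The subgroup that binds the corepressor CtBP (KLF3, KLF8 and KLF12) was lower, at 51.6, 28.2, 53.6 and 35.5 TPM. The activating subgroup was highest in tendon 3 and the SIN3A-binding subgroup in tendon 1, and both were lowest in tendon 4.

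KLF6, an injury-responsive activator, had 113, 93.1, 127 and 83.5 TPM, a mean of 104 ± 19.7 TPM (SD, n = 4). KLF4, a regulator of stemness, of endothelial quiescence and of smooth muscle state, had 112, 72.6, 166 and 62.8 TPM (chromosome 1, 5665756 to 5669463). Its mean was 103 ± 46.8 TPM (SD, n = 4), with the highest value in tendon 3 and the lowest in tendon 4. Endothelial genes (10 measured) summed to 287, 339, 453 and 431 TPM, also highest in tendon 3, but in tendon 4 they stood above tendon 1, where KLF4 was higher. The part of endothelial cells in the KLF4 level was not tested. KLF2, its close relative in endothelium, had no entry, so the planned ratio of KLF4 to KLF2 could not be formed.

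KLF9, a target of the glucocorticoid receptor, had 167, 89.9, 96.5 and 51.1 TPM, a mean of 101 ± 48.04 TPM (SD, n = 4; chromosome 1, 56667965 to 56691156). Tendon 1 stood above and tendon 4 below a pair of middle values. KLF10, an early-response gene of TGF-beta that is also known from tendon, had 105, 62.7, 47.9 and 44.7 TPM, with tendon 1 the highest. KLF15, another glucocorticoid target and a regulator of metabolism in muscle, had 17.3, 12.9, 15.3 and 13.8 TPM and spread less.

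Lower KLF genes spread by smaller amounts, with one exception. KLF3, a repressor known from fat and B cells, had 35.9, 19.7, 38.4 and 25.2 TPM, and KLF7, known from neurons and fat, 28.8, 16.2, 21.8 and 17.7 TPM. KLF5, an activator in epithelium and smooth muscle, had 19.8, 15.4, 19.3 and 19.2 TPM, and KLF12 lay between 6.603 and 11.97 TPM. KLF11, a relative of KLF10, had 6.81, 7.07, 10.5 and 6.95 TPM, with tendon 3 alone above the rest. KLF1, the erythroid factor, was low but showed the same shape, with 6.43, 6.31, 13.4 and 6.35 TPM from 59, 99, 189 and 98 counts. KLF8 had a mean of 2.901 TPM, and KLF14 and KLF17 had no counts.

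FOX proteins carry a forkhead domain and divide into lettered classes. FOXS1, a forkhead gene known from neural crest derivatives and from perivascular cells, was the leading FOX gene by TPM. By CPM the leading FOX gene was FOXJ3, at 94.1 CPM against 56.9 CPM for FOXS1. FOXS1 had 197, 69.7, 123 and 66.1 TPM, a mean of 114 ± 61.1 TPM (SD, n = 4). Tendons 1 and 3 were high and tendons 2 and 4 low. All its counts lay on 1 transcript of 933 bases (chromosome 4, 7410543 to 7411535), which overlapped 0 other genes of the table, and its other transcript had none. Pericyte and smooth muscle genes (5 measured) summed to 389, 413, 494 and 459.6 TPM. The sum was lowest in tendon 1, where FOXS1 was highest, and so were ACTA2, RGS5, MYH11 and NOTCH3. PDGFRB, the highest of the 5, had 180, 146, 166 and 141 TPM and followed the tendon order of FOXS1. The part of pericytes and smooth muscle cells in the FOXS1 level was not tested.

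FOXO proteins are retained in the cytoplasm by AKT and otherwise induce genes of stress resistance, metabolism and protein breakdown. FOXO1 had 84.1, 46.5, 51.3 and 36.98 TPM, and FOXO3 had 63.5, 35.1, 41.6 and 36.6 TPM. Both were highest in tendon 1, with no other tendon above 51.3 or 41.6 TPM. The annotated FOXO1 transcript is short, 1281 bases over a span of about the same size, and the order of the pair depended on length correction. Of 20 symbols of the insulin-like growth factor and FOXO pathway, 17 had an entry. All 17 passed 1 TPM, against 75.4% of genes with a symbol. They included the insulin-like growth factor receptor IGF1R at 18.1 ± 4.76 TPM and the kinase AKT2 at 107 ± 7.94 TPM (SD, n = 4). Among FOXO target genes, TXNIP stood at 328 ± 89.6 TPM, CDKN1B, a cell cycle inhibitor, at 78.1 ± 13.5 TPM and PDK4, a brake on glucose oxidation, at 13.5 ± 4.77 TPM. By TPM, 6 of the 17 were highest in tendon 1 (38.6% of all genes that passed 1 TPM were) and 7 in tendon 4 (32.3%). TRIM63, GADD45A, FBXO32 and CAT were among those 7, while CDKN1B, BCL6 and SESN3 were highest in tendon 1 and TXNIP and PDK4 in tendon 3.

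Other FOX classes were expressed at moderate levels. FOXP1, a repressor in many tissues, had 50.7, 29.4, 42.3 and 31.9 TPM, while its relative FOXP2 had a mean of 1.37 TPM. FOXN3, a checkpoint repressor, had 50.7, 35.9, 32.4 and 30.4 TPM, with tendon 1 above the rest, and FOXN2 lay between 11.9 and 19.4 TPM. FOXJ2 had 39.5, 30.9, 35.2 and 30.4 TPM, and FOXJ3, known for inducing MEF2C in muscle, had 33.2, 26.1, 31.4 and 28.8 TPM. FOXK2, a repressor of autophagy and glycolysis regulator, was the steadiest FOX gene, with 33.1, 29.8, 30.6 and 29.6 TPM. FOXF1 and FOXF2, factors of visceral mesoderm, stayed below 1 TPM in every tendon. The factors of endoderm and epithelium were also low: FOXA2, FOXE1, FOXI1, FOXI2 and FOXJ1 had 0 counts, and FOXA3 had 2.05 counts in tendon 3 alone.

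RUNX proteins bind DNA together with CBFB, which had no entry. RUNX1 had 43.5, 28.2, 31.4 and 34.5 TPM, a mean of 34.4 ± 6.604 TPM (SD, n = 4). RUNX2 (chromosome 12, 34676050 to 34814334) had 26.6, 14.4, 15.5 and 21.02 TPM. Both were highest in tendon 1 and next highest in tendon 4, and RUNX1 exceeded RUNX2 in each tendon. RUNX3, known from T cells and cartilage, had 5, 12.05, 5 and 17 counts, below 1 TPM in every tendon. RUNX1T1, which shares the name but encodes a corepressor known from fat and haematopoiesis, had 30.8, 19.4, 21.7 and 23.4 TPM. Of 7 partner symbols, 4 had an entry, and all 4 passed 1 TPM, against 75.4% of genes with a symbol. They were the Groucho-type corepressors TLE4 at 30.7 ± 2.73, TLE3 at 14.2 ± 1.95 and TLE1 at 13.5 ± 0.864 TPM, and CBFA2T2, a relative of RUNX1T1, at 10.96 ± 1.597 TPM (SD, n = 4).

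GLI2 and GLI3 are the primary mediators of Hedgehog signalling, and GLI1 is both an effector and a target that is transcribed when the pathway is active. GLI2 (chromosome 7, 59796306 to 59899847) had 24.9, 13.7, 13.1 and 10.8 TPM, with tendon 1 the highest. GLI3, the main repressor form, had 8.39, 6.24, 7.85 and 8.35 TPM with tendon 2 below the others. GLI1 was the lowest of the 3, with 0.301, 0.397, 0.6198 and 1.33 TPM, from 13.3, 30.02, 42.0 and 98.9 counts, and was highest in tendon 4. Its gene overlaps ARHGAP9 on the other strand, and the use of strand in counting is not given in the sources used here.

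GLIS2, a Krüppel-like zinc-finger factor of kidney and cilium biology, was far higher than the GLI genes. It had 163, 124, 100.2 and 88.7 TPM, a mean of 119 ± 32.6 TPM (SD, n = 4), while GLIS1 stayed below 1 TPM in each tendon. By mean TPM it was second to NFIX among the members, but the order was not the same in each tendon: FOXS1 and KLF9 exceeded it in tendon 1, and FOXS1, KLF6 and KLF4 in tendon 3. By mean CPM, without length correction, KLF10, RUNX1 and TEAD4 also exceeded it, at 115, 109 and 102 CPM against 100 CPM.

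Of 16 Hedgehog pathway symbols, 13 had an entry and 9 passed 1 TPM, against 75.4% of genes with a symbol. The ligand genes did not: SHH had a mean of 0.291 TPM, DHH 0.407 TPM and IHH counts in tendon 1 alone. Co-receptors and transducers were higher, with BOC at 101 ± 24.6 TPM, CDON at 33.96 ± 9.23 TPM and the transducer SMO at 58.97 ± 8.62 TPM (SD, n = 4). The inhibitor SUFU stood at 15.3 ± 2.004 TPM. The receptor PTCH1, itself a Hedgehog target, was low and even, between 4.12 TPM in tendon 2 and 5.22 TPM in tendon 1, and the target and inhibitor HHIP had a mean of 0.177 TPM.

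TEAD proteins bind DNA for the coactivators YAP1 and WWTR1. TEAD1 had 44.03, 41.2, 37.9 and 42.4 TPM, and TEAD2 had 38.8, 37.4, 37.9 and 35.2 TPM. These were among the steadiest members, as was TEAD3, with 8.39, 10.1, 8.41 and 8.97 TPM. TEAD4, known for muscle and trophoblast development, behaved otherwise, with 29.2, 41.01, 35.9 and 69.5 TPM (chromosome 8, 29175742 to 29464015). It was highest in tendon 4 and lowest in tendon 1. Its long transcript of 5899 bases had 20.99, 27.3, 24.9 and 36.7 TPM, and the short one of 1386 bases had 8.17, 13.7, 10.99 and 32.8 TPM. The excess in tendon 4 was thus present on both models, and larger on the short one. Fast-fibre genes and 5 muscle stem cell and myogenic genes, which summed to 5.82, 15.9, 9.44 and 40.02 TPM, were also highest in tendon 4 and lowest in tendon 1, and their part in the TEAD4 level was not tested.

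All 18 Hippo pathway symbols had an entry and passed 1 TPM, against 75.4% of genes with a symbol. WWTR1 had 293, 203, 207 and 183 TPM and YAP1 120.1, 91.9, 99.9 and 91.4 TPM, so that each coactivator was above every TEAD gene in every tendon. The kinases LATS1 and LATS2, which mark YAP1 for retention, stood at 29.9 ± 7.91 and 30.4 ± 5.29 TPM (SD, n = 4). The target genes CYR61 (CCN1) and CTGF (CCN2) stood at 1023 ± 64.1 and 444 ± 103 TPM. ANKRD1, a target that is also a stretch-responsive muscle gene, had 41.1, 55.3, 54.3 and 405 TPM, with tendon 4 far above the rest. VGLL3, a TEAD cofactor, had 30.4, 15.2, 14.1 and 13.9 TPM, with tendon 1 alone high.

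**Figure D2:**
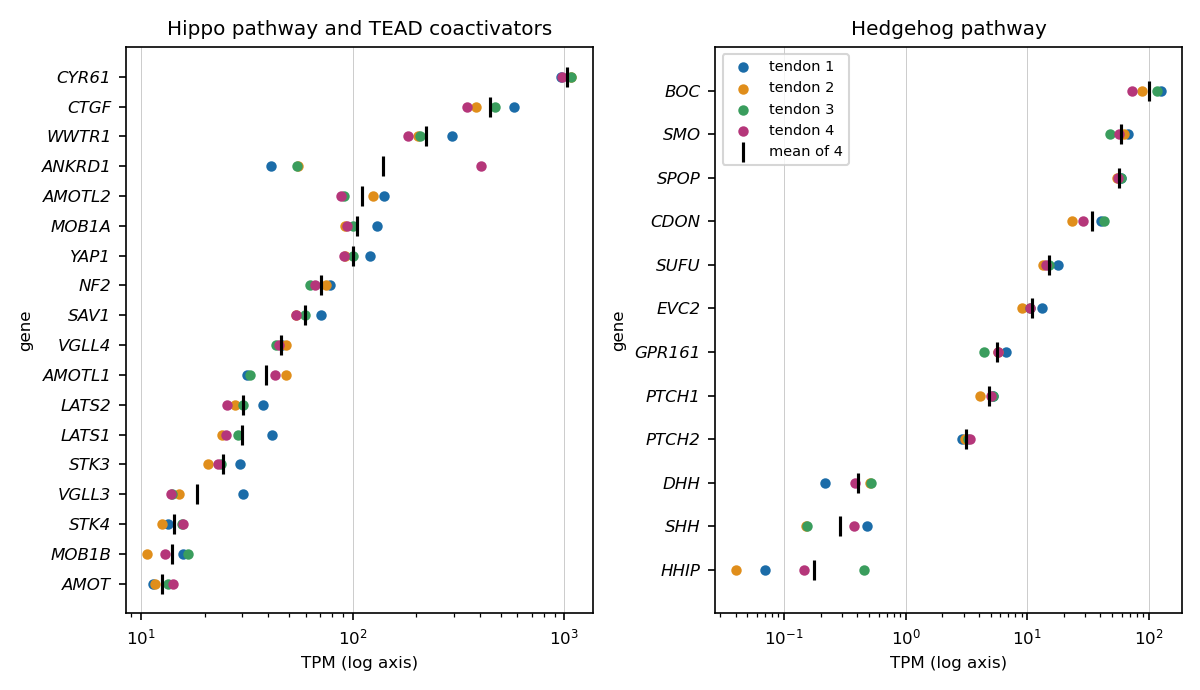
TPM on a log axis of the 18 measured Hippo pathway genes and of 12 of the 13 measured Hedgehog pathway genes (each point a tendon, each black bar the mean over the 4). IHH, at 0 counts in 3 tendons, is not drawn. CYR61 was near 1023 TPM in all tendons, ANKRD1 stood at 405 TPM in tendon 4, and the ligand genes SHH and DHH lay below 1 TPM.

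SOX proteins bind DNA through an HMG box. SOX9 (chromosome 19, 55820444 to 55823755), the cartilage and tendon-attachment factor, led the family with 28.6, 14.6, 32.6 and 15.8 TPM, a mean of 22.9 ± 9.05 TPM (SD, n = 4). Tendons 1 and 3 were high and tendons 2 and 4 low, the same division as for FOXS1. The SOXD genes, which lack an activation domain and assist SOX9, summed to 26.2, 16.7, 24.5 and 21.3 TPM. Among them, SOX6 had 13.9, 8.46, 12.03 and 8.69 TPM, SOX5 had 8.59, 4.41, 7.63 and 7.47 TPM, and SOX13 lay between 3.73 and 5.16 TPM. SOX4, a factor of progenitors, had 15.5, 12.9, 13.1 and 11.6 TPM and differed little between tendons.

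Genes of the cartilage programme that SOX9 is known to activate were read beside it. Of 13 symbols, 8 had an entry, and the 8 summed to 1067, 597, 394 and 376 TPM. Of these, 6 passed 1 TPM, against 75.4% of genes with a symbol. All 6 were highest in tendon 1 by TPM and by TMM-normalised CPM, against 38.6% and 30.5% of all genes that passed 1 TPM. COL2A1, the cartilage collagen, had 281, 195, 79.9 and 130.2 TPM, so that it was lowest in tendon 3, where SOX9 was highest. ACAN, the cartilage proteoglycan, had 76.3, 52.99, 68.2 and 41.1 TPM and shared its high values in tendons 1 and 3 with SOX9. So did COL9A1, a cartilage collagen below 1 TPM on average, with 0.875, 0.3398, 1.11 and 0.4103 TPM. The rest of the list did not share this division. MATN4 and MATN3 were, like COL2A1, lowest in tendon 3, at 52.5 and 1.67 TPM. COL11A2 was level in tendons 2 and 3, at 177 and 178 TPM, and HAPLN1 and COL9A2 fell from tendon 1 through to tendon 4. Tendon 3 was also the tendon with the lowest TNMD (tenomodulin), at 31.7 TPM against at least 158 TPM in the others.

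The remaining SOX genes were near the limit of detection. SOX10, the Schwann cell and melanocyte factor, had 6, 16.04, 26.02 and 26.1 counts, below 1 TPM in each tendon, while 8 Schwann cell genes summed to 339, 283, 308 and 256 TPM. Its gene overlaps POLR2F, a polymerase subunit gene at 163 TPM, on the other strand. The neural SOXB1 genes SOX1, SOX2 and SOX3 summed to 0.177, 1.38, 0.737 and 1.29 TPM. SOX15 had 10, 4, 3 and 11 counts. SOX11, an embryonic partner of SOX4, had 1, 7, 1 and 27 counts, most of them in tendon 4. SOX14 had none.

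Some low members, picked after their values were seen, had most of their counts in tendon 4. FOXM1, which drives genes of mitosis, had 14, 18, 21 and 80 counts, and FOXP3, the factor of regulatory T cells, had 11, 8, 7 and 43 counts. Both had means below 1 TPM but exceeded it in tendon 4, at 2.09 and 1.97 TPM. A list of 18 proliferation genes, chosen after these values were seen, had 13 members above 1 TPM, a level reached by 75.4% of genes with a symbol. Of these 13, 11 were highest in tendon 4 by TPM and by TMM-normalised CPM, against 32.3% and 24.5% of all genes that passed 1 TPM. These 14 measured genes summed to 105, 97.2, 119 and 141 TPM. Lymphocyte genes (5 measured) summed to 7.32, 4.58, 9.12 and 16.04 TPM, also highest in tendon 4, and their part in the FOXP3 level was not tested. Over all 18 members with counts but a mean under 1 TPM, 6 were highest in tendon 4 by TMM-normalised CPM, 5 each in tendons 2 and 3, and 2 in tendon 1. The share over all genes this low was not computed, so these counts cannot show an excess in tendon 4.

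The members at 0 in all tendons were FOXA2, FOXE1, FOXI1, FOXI2, FOXJ1, FOXN4, FOXR2, KLF14, KLF17 and SOX14. For these genes, 3 counts, the limit that a count of 0 allows, would correspond to between 0.0741 and 0.399 TPM in a single tendon. The limit covers counting error only, and lower levels were not detectable at this depth.

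Spread between animals was measured on CPM (counts scaled to library size, without length correction) after TMM normalisation, over the 33 members and 8780 genes whose mean reached 10 CPM. The highest tendon was at least 2 times the lowest for 7 members (21.2%), against 10.2% of all genes. The median ratio of highest to lowest was 1.58 for members and 1.33 for all genes. These 7 were KLF9 (3.24-fold), FOXS1 (2.96-fold), KLF4 (2.72-fold), KLF10 (2.34-fold), GLI2 (2.28-fold), FOXO1 (2.26-fold) and SOX9 (2.12-fold), with TEAD4 just short at 1.95-fold. KLF9 had 63.97, 39.3, 38.4 and 19.8 TMM-normalised CPM in tendons 1 to 4, and KLF4 had 81.7, 60.2, 125 and 46.1. At the other end, FOXK2 and KLF5 differed 1.14-fold and FOXJ3 1.15-fold.

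The count rested on the tendons at the extremes. Without tendon 1, 2 of 33 members had a 2-fold range (KLF4 and SOX9), which is 6.06% against 5.42% of all genes, so the members' share was near that of all genes. Without tendon 4, 4 of 34 had it (FOXS1, KLF4, KLF10 and SOX9), 11.8% against 6.78%. Dropping tendon 3 ended it for KLF4 and SOX9, leaving 15.2% against 9.0%. The members' share also neared the background at other settings. It was 23.8% of 42 members against 19.0% of all genes when the filter was lowered to 1 CPM, and 3.03% against 4.0% at a range of 3-fold.

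The direction of the spread was shared. Of the 33 members, 20 were highest in tendon 1 (60.6%, against 34.1% of all genes), and 21 were lowest in tendon 4 (63.6%, against 30.6%). Tendon 1 was lowest for 3 members (9.09%, against 30.1%), tendon 2 for 7 (21.2%, against 22.1%) and tendon 3 for 2 (6.06%, against 17.3%). Tendon 2 was highest for 4 members (12.1%, against 31.4%), tendon 3 for 7 (21.2%, against 15.7%) and tendon 4 for 2 (6.06%, against 18.8%), which were TEAD4 and GLI3. A single tendon stood apart by Dixon's ratio for 2 of the 33 (6.06%, against 5.91%). On the log2 scale, the median deviation of a member from its own mean was 0.31 in tendon 1, -0.13 in tendon 2, 0.03 in tendon 3 and -0.25 in tendon 4. Over all 8780 genes the corresponding medians lay between -0.03 and 0.02. The scale changed both shares. By TPM, 26 members were highest in tendon 1 (78.8%, against 44.2% of all genes) and 13 were lowest in tendon 4 (39.4%, against 17.3%). With counts scaled by library totals in place of TMM, 12 were lowest in tendon 4 (36.4%, against 13.9%).

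Several measures moved with this order. Tendon 1 had the fewest counts and the lowest skeletal muscle sum, and the 8 tendon genes summed to 65736, 49431, 32351 and 28950.1 TPM in tendons 1 to 4, highest in tendon 1 and lowest in tendon 4. Of the single tendon genes, DCN and MKX were highest in tendon 1 and lowest in tendon 4, and the others were not. By TPM, TNMD was highest in tendon 4 (187 TPM) and THBS4 and FMOD in tendon 2. COL1A1 and COL1A2 were lowest in tendon 3, and EGR1 in tendon 2. Tendon 4 had the highest fast-fibre, adipocyte and macrophage sums. The part of these differences in the members' order was not tested, and each animal gave 1 library, so that animal, dissection and library cannot be told apart.

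**Figure D3:**
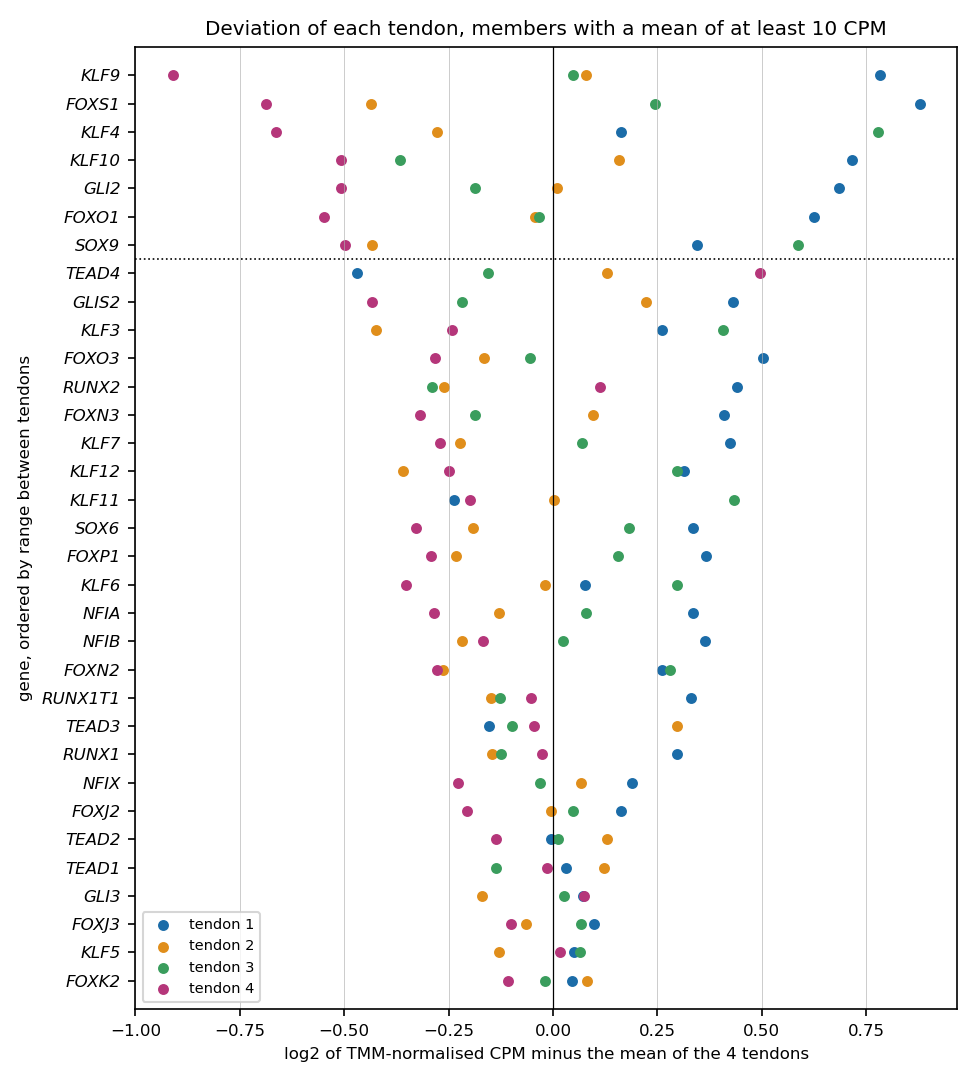
Deviation of each tendon (points) from the gene's mean over the 4 tendons, as log2 of TMM-normalised CPM, for the 33 members with a mean of at least 10 CPM, ordered by range; genes above the dotted line had a range of at least 2-fold. Tendon 1 lies to the right for most genes and tendon 4 to the left, with TEAD4 the reverse.

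Hormone-responsive genes were read beside KLF9 and KLF15. Of 13 glucocorticoid-related symbols, 11 had an entry and all 11 passed 1 TPM, against 75.4% of genes with a symbol. Among them, 9 were highest in tendon 1 by TPM, against 38.6% of all genes that passed 1 TPM. By TMM-normalised CPM the count was 8, against 30.5%. DUSP1, a phosphatase induced by stress and glucocorticoids, had 211, 56.9, 78.6 and 54.7 TPM. FKBP5, a chaperone of the receptor and its target, had 25.95, 11.2, 9.65 and 11.3 TPM, and the clock gene PER1 had 73.2, 16.3, 29.9 and 33.2 TPM. Each was high in tendon 1 alone, while KLF9 was in addition low in tendon 4. The receptor gene NR3C1 had 157, 93.3, 125 and 87.2 TPM. A range of at least 2-fold, found for 10.2% of all genes above 10 CPM, was reached by 5 of the 11 (DUSP1, PER1, FKBP5, HSD11B1 and ZBTB16) and by 4 of 17 FOXO pathway genes (PDK4, TRIM63, GADD45A and SESN3). It was reached by 2 of 17 Hippo genes, a share near that of all genes, and by 0 of 7 Hedgehog genes.

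The gene-wise biological coefficient of variation, estimated by edgeR over 12740 genes, had a median of 0.224 over the 42 members that passed its filter and 0.205 over all genes tested. The common value was 0.264. Members ran from 0.154 for TEAD1 and FOXK2 to 0.376 for FOXS1 and 0.5097 for GLI1, the last at low counts.

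Related genes were compared within each tendon by the ratio of their TPM, over 7 pairs. In 6 of the pairs the first gene was higher in all 4 tendons. NFIX was 8.18, 11.2, 8.88 and 8.84 times NFIB in tendons 1 to 4. KLF9 was 9.64, 6.98, 6.296 and 3.71 times KLF15, and TEAD1 was 5.25, 4.09, 4.51 and 4.73 times TEAD3. SOX9 was 2.06, 1.73, 2.71 and 1.82 times SOX6, and RUNX1 was 1.64, 1.96, 2.03 and 1.64 times RUNX2.

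GLI2 was 2.96, 2.19, 1.67 and 1.295 times GLI3, a mean log2 ratio of 0.95 ± 0.51 (SD, n = 4). FOXO3 was 0.755, 0.756, 0.8104 and 0.9895 times FOXO1, close to equal in tendon 4. Its mean log2 ratio was -0.28 ± 0.18 (SD, n = 4), and it turned to 0.38 in CPM, where FOXO3 gains from its longer transcript. Each of the 7 ratios kept its side of 1 across the tendons and gave p = 0.13, adjusted over the 7 pairs also 0.13, when signs were flipped in an exact permutation test (two-sided). That is the smallest p that 4 tendons allow, so none could reach 0.05.

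**Figure D4:**
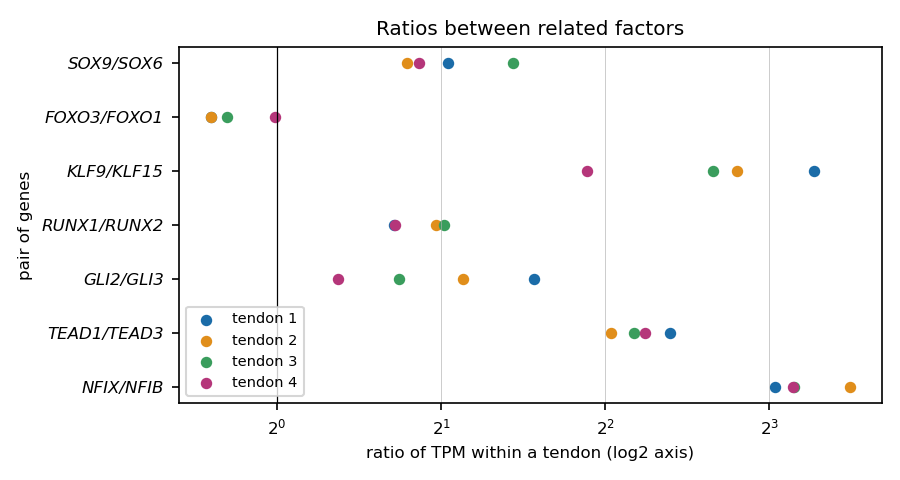
Ratio of TPM between 2 related genes within each of tendons 1 to 4 (points), on a log2 axis, with a line at 1. NFIX exceeded NFIB by at least 8.18-fold, and the ratio of FOXO3 to FOXO1 lay between 0.755 and 0.9895.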

How the data were processed

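The authors deposited raw estimated counts of each transcript in the 4 tendons. Per the submitters' processing notes, kallisto 0.42.4, bcl2fastq, FastQC and build OryCun2.0 were used. Per the file headers, symbols, coordinates and transcript lengths stood beside the counts. Filters and strand use are not given in the sources used here.

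TPM were computed from the 21589 transcripts' counts and annotated lengths and summed per gene. After rounding, TMM factors and dispersions came from an intercept-only model (edgeR 4.0.16, R 4.3.3), the dispersions over genes at 1 CPM or more in 2 or more tendons. DESeq2 1.42.0 gave alternative size factors and dispersions. Ratios were tested by exact sign-flip permutation with Benjamini-Hochberg adjustment. A tendon stood apart where its Dixon ratio passed the 95% critical value. The spread estimates were tested on data simulated at a coefficient of variation of 0.3, above the common value of 0.264 in the data. The recovered common value was 0.299. In these simulated data, a 2-fold range was reached by 98.5% of genes changed 4-fold in tendon 4 and by 37.7% of unchanged genes. Remaining steps used Python 3.11.15.

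Of the 40 members with a mean of at least 1 TPM, 27 had whole-number counts in all 4 tendons (within 0.001), as when no read is shared between transcripts. Detected members whose annotated span overlaps another gene numbered 5.

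The members and gene lists were chosen with earlier results of these data known. All members were counted. Values per tendon were given for leading members at 10 TPM or more (up to 8 for FOX and KLF, up to 5 for other families), for members of fixed pairs and for those with a 2-fold range. Other members given by tendon, such as GLI1, FOXM1 and FOXP3, were chosen after their values were seen.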

Additional observations from a re-analysis of the deposited data

Results flagged for a closer look

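Of 175 values tested for 1 tendon apart from the other 3, 18 exceeded the critical value of Dixon's ratio. Chance alone would give about 8.75 if the values were independent and normally distributed. The 175 included proliferation genes chosen after their values were seen. They also included genes with counts in a single tendon, whose ratio is always 1.0. The excess over 8.75 was therefore not read as a result. Among single members the count was 7 of 58, where chance gives about 2.9 under the same assumptions, and FOXA3, FOXN1 and SOX3, with counts in a single tendon, were among the 7. No sum over a family and none of the 7 ratios passed. Over members with a mean of at least 10 CPM, 2 of 33 passed (6.06%, against 5.91% of all such genes).

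Tendon 3 stood apart for KLF1 (Dixon ratio 0.983), the erythroid factor, with 13.4 TPM against at most 6.43 TPM, and for KLF11 (0.927), with 10.5 TPM against at most 7.07 TPM. KLF5 (0.8703) was low in tendon 2, at 15.4 TPM against at least 19.2 TPM, a small difference beside that of KLF1. FOXM1 (0.906), the mitosis factor, was high in tendon 4. FOXA3, FOXN1 and SOX3 each had a ratio of 1.0 because their 1 to 2.05 counts lay in a single tendon.

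Among pathway genes, tendon 4 was high for ANKRD1 (0.961) and for the mitotic genes TOP2A (0.884), BUB1 (0.871) and KIF11 (0.836). Tendon 1 was high for COL9A2 (0.9598), a cartilage collagen, the glucocorticoid targets TSC22D3 (0.933), FKBP5 (0.898) and DUSP1 (0.847), and the TEAD cofactor VGLL3 (0.9202). IHH had a ratio of 1.0, with counts in tendon 1 alone. The sum of fast-fibre genes was high in tendon 4 (0.973).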

How the results depend on the processing

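Of 68 members, 40 to 42 reached a mean of 1 TPM when each tendon was left out (all genes 62.3% to 63.5%). The count was 39 at 1 TPM in every tendon (all genes 59.3%), 42 at a mean of 1 CPM (all genes 62.5%) and 47 at a mean of 0.5 TPM (all genes 67.3%). Without length correction, summed levels were 250.0 CPM for RUNX, 191 CPM for TEAD and 339.9 CPM for NFI genes, against 78.1, 132 and 530.0 TPM, and the log2 ratio of FOXO3 to FOXO1 reversed to 0.38; these follow from transcript length. The count of members with a 2-fold range was 2 to 7 when each tendon was left out, 8 by library totals (24.2%, all genes 11.0%), 10 at a mean of 1 CPM (23.8%, all genes 19.0%) and 9 with no filter (13.2%, all genes 8.66%). At thresholds chosen after seeing the data it was 20 at 1.5-fold (60.6%, all genes 28.9%) and 1 (KLF9) at 3-fold (3.03%, all genes 4.0%). Members lowest in tendon 4 numbered 12 by library totals and 13 by TPM, both added after seeing the data. The median coefficient of variation was 0.259 with no filter on low counts. Of 198 recomputed ranges of single members, 187 stayed on their side of 2-fold, but most of the members were below 2-fold from the start. Of the 11 changes, 10 were falls below 2-fold among the 7 members that had this range. Each of the 7 fell below it in at least 1 recomputation. KLF9, FOXS1, KLF10, GLI2 and FOXO1 did so without tendon 1, and KLF4 and SOX9 without tendon 3. At 28 counts over all tendons for SOX15 and 4 for FOXH1, no difference between tendons could be read. Beyond the ratios of 2 genes within each tendon, no paired comparison was possible because the samples form 1 group.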

Other observations

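Distances between members were measured only within the same chromosome or scaffold of the assembly. NFIX, KLF1, GLIS2, FOXO1 and RUNX1, among others, each lay on a scaffold that held no other member, so their distances were not measured. The count of pairs below is therefore a minimum, and no share over all genes was computed. Within 1000 kb, 3 pairs were found on build OryCun2.0: FOXM1 and TEAD4 on chromosome 8, 79.0 kb apart, KLF5 and KLF12 on chromosome 8, 591 kb apart, and FOXR2 and KLF8 on chromosome X, 359.6 kb apart. FOXM1 and TEAD4 were both highest in tendon 4, KLF5 and KLF12 were both lowest in tendon 2, and FOXR2 had no counts.

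Some lymphatic endothelial genes were present beside KLF4 and the other vascular members: LYVE1, FLT4 and PROX1 summed to 82.8, 69.8, 120.2 and 79.1 TPM in tendons 1 to 4, highest in tendon 3. Of 20 further family symbols looked up, among them SOX17, SOX18, FOXC1, FOXC2 and KLF13, none had an entry, so the vascular and skeletal members of these families are described here only in part.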
